A study of Mus musculus with 4 samples.

Results

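Translation initiation factors (Eif genes) and elongation factors (Eef genes) were taken as all protein-coding genes of the deposited table whose mouse symbol begins with Eif or Eef followed by a digit. The rule found 67 of 52636 genes, and another 9 genes with such a symbol were pseudogenes or non-coding and were left out. RNA-seq libraries, 4 in all, came from regulatory T cells, sorted as CD4+CD62L+CD25bright, of C57BL/6 mice aged 7 weeks. The groups were Vav1R63W, a knock-in allele of the T cell receptor signalling protein Vav1, and Vav1R63WThemis1-T-/-, which carries the same allele with a deletion of Themis1 written T-/- in the labels. Each group had 2 libraries, numbered replicates 2 and 3. No wild-type group is among these libraries, so every comparison is between 2 genotypes that share the Vav1 allele. Nothing in the labels says that replicates came from separate animals, and p-values therefore measure only the spread between these libraries, which may be technical.

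Translation of an mRNA starts when a small ribosomal subunit, carrying an initiator tRNA held by eIF2, is brought to the mRNA cap by eIF4F and scans to a start codon. eIF3 holds these parts together, eIF5, eIF5B and eIF6 govern the joining of the large subunit, and the eEF1 and eEF2 factors then drive the ribosome along the message. Resting T cells keep protein synthesis low, and T cell receptor and mTORC1 signalling raise it on activation, largely through eIF2, eIF2B and the cap-binding proteins.

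Several members exist as near copies, and coding sequences of 2 such pairs are shown because the counts below depend on reads being told apart. Each is given 5′ to 3′ from its start codon over 60 bases, taken from the longest open reading frame of the GENCODE M21 transcripts (GRCm38), and capitals mark the bases that differ from the partner.
Eif1: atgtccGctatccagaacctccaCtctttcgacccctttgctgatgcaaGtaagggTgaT
Eif1b: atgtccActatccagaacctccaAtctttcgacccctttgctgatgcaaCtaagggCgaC
Eif2s3x: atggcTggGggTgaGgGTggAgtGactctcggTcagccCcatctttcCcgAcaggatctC
Eif2s3y: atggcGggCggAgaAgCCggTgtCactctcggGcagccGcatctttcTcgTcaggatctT
Eif1 and Eif1b differed at 5 of these 60 bases and were identical at 81.3% of 342 coding bases, with a longest identical run of 25 bases. Eif2s3x, on chromosome X, and Eif2s3y, on chromosome Y, differed at 13 of the 60 and were identical at 86.3% of 1419, with a longest identical run of 34 bases. A coding read longer than these runs differs between the partners by at least 1 base. Read length is not given in the sources used here.

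Shared sequence with pseudogenes and overlapping genes was more common than shared sequence between family members. Of all 50-base stretches in a member's transcripts, over 10% also occurred in another gene for 15 of the 67 members, and under 1% for 27. The share was 91.8% for Eif3j2 and 50.9% for Eif3j1, which share it with each other and with Spg11, among other genes. It was 38.0% for Eef1a1, 44.1% for Eef1g and 28.3% for Eif4a1, which share it with predicted genes and pseudogenes. It was 37.2% for Eif3d, shared with Gm17638, and 34.6% for Eif2s3x, shared with Gm2223. The counts of these 7 genes are uncertain for that reason, and to a lesser degree those of the other 8 above 10%, which are Eif1, Eif1ad, Eif2s2, Eif3m, Eif4a3, Eif4e3, Eif5b and Eef2kmt. The share was 5.39% for Eif3e, 1.12% for Eif4b and 3.58% for Eif5a, on which results below turn.

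The annotated start sites are shown for 3 members because many mRNAs of the translation machinery start in a run of pyrimidines, the 5′ terminal oligopyrimidine (TOP) element through which mTORC1 controls them. Each line gives 15 bases before and 15 bases from the annotated RefSeq start (GRCm38.p6), 5′ to 3′ on the gene's strand, and capitals mark any run of 8 or more C or T.
Eif3f, chr7:108934400-108934429, plus strand: tctgttctaggCTCTCTCTCTTTCTCggca
Eif2s3x, chrX:94212637-94212666, minus strand: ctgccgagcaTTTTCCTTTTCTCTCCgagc
Eef1a1, chr9:78481710-78481739, minus strand: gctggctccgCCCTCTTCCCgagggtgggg
Only the given strand was searched, and a gene was counted if any of its starts held such a run. It was present in 12 of the 51 members in the RefSeq promoter table (23.5%) and in 3760 of all 27025 genes there (13.9%). The 3 genes shown are among these 12, and Eif3e is not among the 51. A C at the start followed by 4 C or T bases was found in 2 members, Eif3f and Eif2s3x, and in 3.01% of all genes. A match describes the letters in this window and is not a mapped start site in these cells.

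Reads assigned to genes numbered 13963670 to 15953194 per library, and levels are given as CPM, a gene's reads scaled by that library's total. Themis, the deleted gene, had 283 and 97 reads in Vav1R63W replicates 2 and 3, and 685 and 0 reads in replicates 2 and 3 labelled Themis1-T-/-. Replicate 2 of the deleted group thus held the most Themis reads of all libraries, and each direction below is between labels. Which exons were deleted is not given, and reads outside them would check nothing. The counts therefore cannot decide whether that label is right. Vav1, whose allele the groups share, was at 206 and 253 CPM in Vav1R63W replicates 2 and 3. It was lower in both libraries labelled Themis1-T-/-, at 160 and 73.5 CPM in replicates 2 and 3. All 7 markers fixed for regulatory T cells had reads in all libraries, with Foxp3 at 636 to 1014 CPM and Il2ra at 223 to 325. All 6 monocyte and macrophage markers and all 4 dendritic cell markers were at 0 in every library. Of the B cell markers, Ms4a1 and Pax5 were at 0 in all libraries, and Ighm was at 1111 and 1234 CPM in Vav1R63W replicates 2 and 3 and at 1274 and 1307 CPM in the libraries labelled Themis1-T-/-. Cd79b was at 58.3 and 63.6 CPM against 35.5 and 62.7 CPM and Cd79a at 9.64 and 5.35 CPM against 2.38 and 0 CPM, so the groups overlapped for Cd79b, and Cd79a was lower in both latter libraries while Ighm was higher. The NK cell list summed to between 0.143 and 37.2 CPM, lowest in the library labelled Themis1-T-/- replicate 3, with Ncr1 and Klrb1c at 0. Of the CD8 T cell markers Cd8a was at 0 and Cd8b1 at 19.3 to 38.5 CPM, and erythroid markers summed to at most 7.65 CPM. The part of these other cell types in the results below was not tested.

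The summed level of the 67 members was 20006 and 21202 CPM in Vav1R63W replicates 2 and 3 and reached 19651 and 20511 CPM in replicates 2 and 3 labelled Themis1-T-/-, so the groups overlapped. Read counts were compared with edgeR's quasi-likelihood test, and p-values were adjusted with the Benjamini-Hochberg method over all 10216 genes that had enough reads. Of the 67 members, 61 were tested and 0 passed at an adjusted p under 0.05, as for all genes (0 of 10216, 0.0%). A single member, Eif3e, had an unadjusted p under 0.05, and 4.98% of all genes tested did. limma-voom called 0 members and 0.0% of genes, and DESeq2 called 0 members and 1.88% of genes. In the authors' deposited table, 59 members had an adjusted p and 1 passed, again Eif3e. There 1.56% of all genes passed in either direction and 0.737% passed with a higher level in the second genotype. Of the 61, 30 had a positive log2 fold change (second genotype over Vav1R63W) and 31 a negative one, with a median of -0.02, beside a median of 0.00 and 50.1% positive over all genes tested. The groups did not overlap for 20 members (32.8%), beside 33.8% of all genes tested. Those 20 were 7 with both libraries labelled Themis1-T-/- higher, beside 15.1% of all genes, and 13 with both lower, beside 18.7%.

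**Figure D1:**
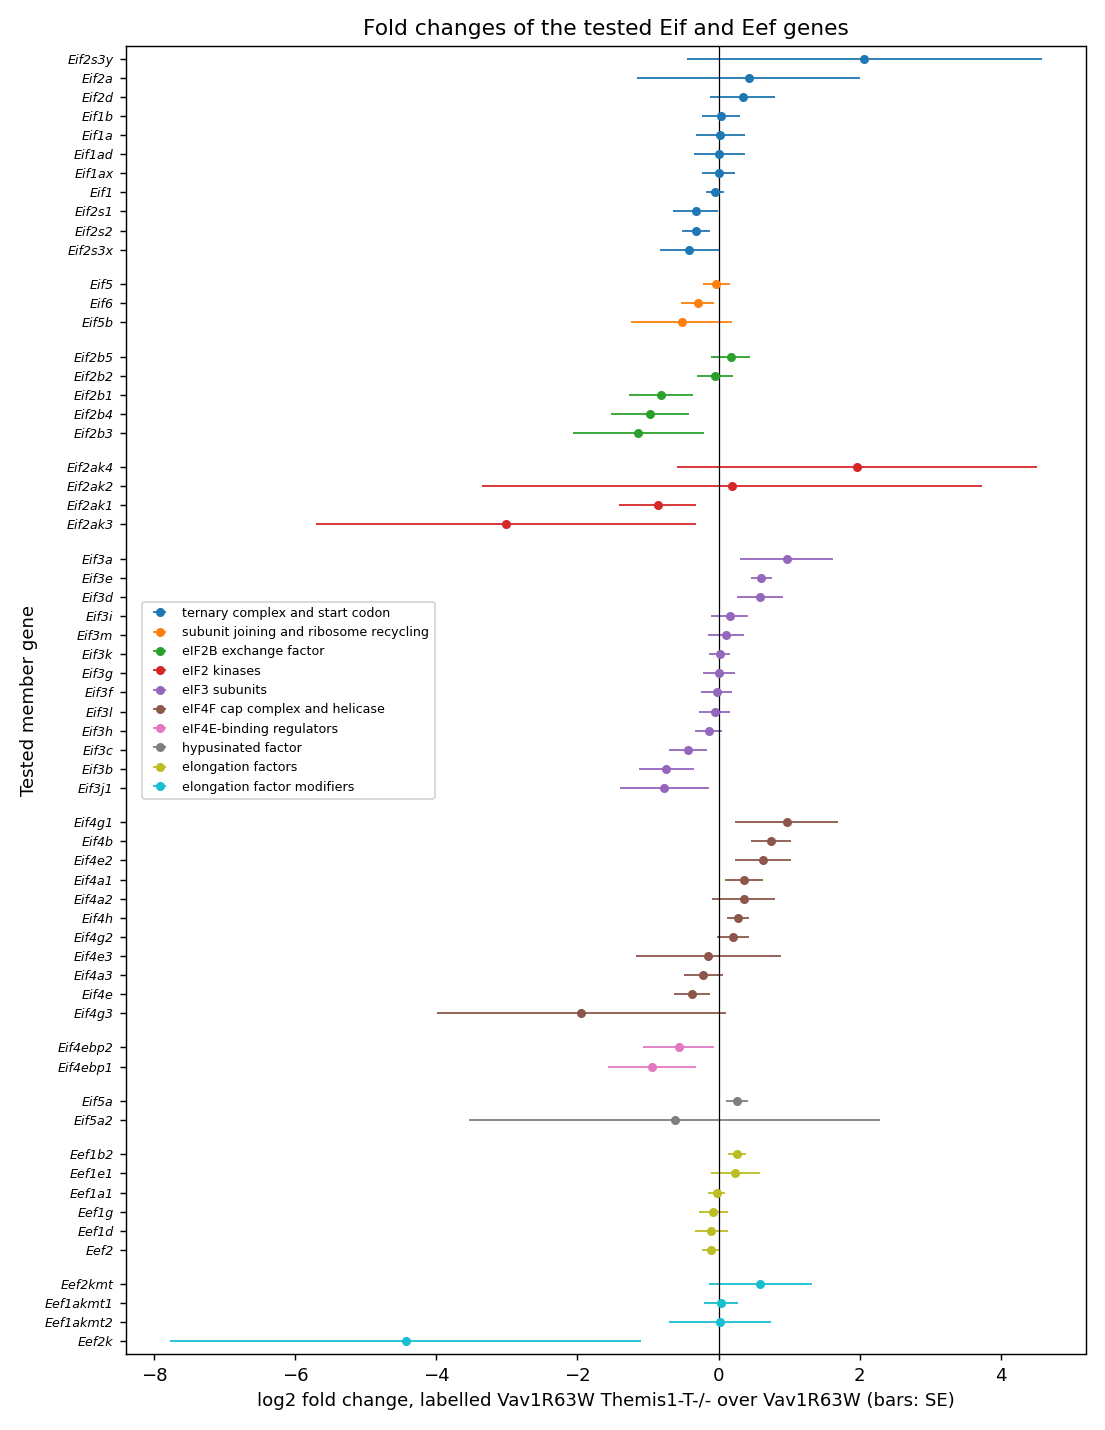
The horizontal axis is the log2 fold change of each of the 61 tested members, libraries labelled Themis1-T-/- over Vav1R63W, with bars for the standard error, and rows are grouped and coloured by role. Most points lie near 0, and Eif3e stands at 0.60 with a narrow bar. The widest bars belong to members with few reads, such as Eef2k and the kinase genes Eif2ak2, Eif2ak3 and Eif2ak4.

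Among eIF3 subunits, which form the scaffold that gathers the initiation factors on the small ribosomal subunit, Eif3e (ENSMUSG00000022336, GRCm38 chromosome 15, 43250058 to 43282719, minus strand) had the smallest p of all members. Eif3e was at 335 and 324 CPM in Vav1R63W replicates 2 and 3 and at 466 and 517 CPM in the libraries labelled Themis1-T-/-, replicates 2 and 3. Both libraries labelled Themis1-T-/- were above both Vav1R63W libraries, and the gap between the groups was wider than the distance within either. Group means were 329.7 ± 7.72 and 492 ± 36.5 CPM (SD, n = 2 in each group). The log2 difference of 0.60 ± 0.15 (SE) did not pass (edgeR adjusted p = 0.900). Across 12 alternative settings its log2 fold change stayed between 0.49 and 0.69 and its adjusted p between 0.175 and 1.000. Without the library labelled Themis1-T-/-, replicate 2, which held the most Themis reads, it was 0.69. In the authors' deposited table Eif3e had a fold change of 1.499, a log2 fold change of 0.584 and an adjusted p of 0.00810. That table was made from the same counts and is not independent support.

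Eif3b, which encodes a core subunit with an RNA-binding domain (ENSMUSG00000056076, GRCm38 chromosome 5, 140419328 to 140443360, plus strand), had the next smallest p among eIF3 genes and the opposite sign. Eif3b was at 333 and 478 CPM in Vav1R63W replicates 2 and 3 and at 315 and 167 CPM in the libraries labelled Themis1-T-/-. The groups did not overlap, but replicate 2 of each group lay close together. The fold change on the log2 scale, -0.74 ± 0.39 (SE), did not pass (edgeR adjusted p = 1.000), and it was -1.24 without the library labelled Themis1-T-/- replicate 2 and -0.37 without replicate 3. Eif3h, the eIF3 gene with the highest level, was at 729 and 551 CPM and at 529.8 and 609.9 CPM in the same order of libraries, and its groups overlapped. Eif3k, at 374 and 413 CPM against 395 and 388 CPM, did not separate the groups. Eif3i was at 324 and 409 CPM against 331 and 471 CPM, and its groups overlapped too.

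Of the remaining eIF3 genes, Eif3c, Eif3d and Eif3a were picked out after their values were seen. Eif3j1 was at 39.4 and 44.2 CPM in Vav1R63W cells against 29.5 and 19.0 CPM in the libraries labelled Themis1-T-/-, both lower. The groups overlapped for Eif3f, Eif3g, Eif3l and Eif3m. Eif3c, which encodes another large core subunit, was at 202 and 142 CPM in Vav1R63W cells and at 121 and 129 CPM in the libraries labelled Themis1-T-/-, so both latter libraries were lower. Eif3d, which encodes a subunit able to bind the cap, was at 75.2 and 84.5 CPM against 141 and 96.2 CPM, with both latter libraries higher. Exons of Eif3d share 43.3% of their bases with an antisense gene, Gm17638, and summing the 2 strand columns of the count files gave 2.51 times the unstranded count, so its level is uncertain. Eif3a, the largest subunit, was at 80.05 and 42.3 CPM against 176 and 59.9 CPM, and the library labelled Themis1-T-/- replicate 2 alone was high. Of the 13 eIF3 genes tested, 0 passed, 7 had a positive and 6 a negative fold change, and the median log2 fold change was 0.01.

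Scaled per kilobase of exon, the eIF3 genes spanned a wide range although their proteins form a complex. Eif3h was highest at 375 ± 55.4 CPM per kilobase (SD, n = 4 libraries), followed by Eif3g at 186 ± 29.4, and these 2 genes did not overlap in any library. Eif3k (145 ± 5.92) and Eif3m (142 ± 24.7) could not be separated by the spread over libraries, nor could Eif3f (106 ± 13.0), Eif3i (104 ± 18.8), Eif3b (96.6 ± 38.1) and Eif3l (90.1 ± 13.5). Eif3e followed at 61.1 ± 14.3 and Eif3c at 42.3 ± 10.4 CPM per kilobase, then Eif3d at 19.95 ± 5.82, Eif3a at 10.3 ± 6.82 and Eif3j1 at 5.66 ± 1.92. Eif3j2, the near copy of Eif3j1, had 3 to 8 reads per library and was not tested. Exon length here is the union of all annotated transcripts, so a gene with long unused exons appears lower than it is.

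**Figure D2:**
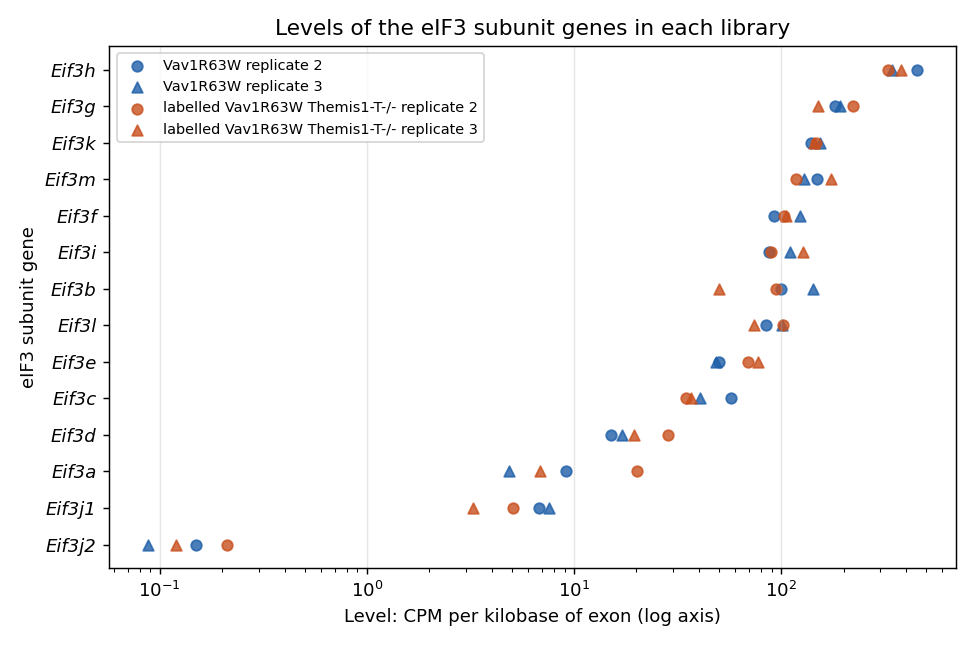
Each row is an eIF3 subunit gene and the horizontal axis is its level in CPM per kilobase of exon on a log axis, with 1 point per library. Eif3e shows both libraries labelled Themis1-T-/- to the right of both Vav1R63W libraries, whereas the points of Eif3k nearly coincide.

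In the cap-binding group, Eif4b, which encodes a cofactor of the helicase eIF4A (ENSMUSG00000058655, GRCm38 chromosome 15, 102073773 to 102097173, plus strand), had the smallest p. Eif4b was at 121 and 101 CPM in Vav1R63W replicates 2 and 3 and at 155 and 209 CPM in the libraries labelled Themis1-T-/-, replicates 2 and 3. Both latter libraries were higher. The log2 difference, 0.75 ± 0.28 (SE), did not pass (edgeR adjusted p = 1.000), and it ranged from 0.48 without the library labelled Themis1-T-/- replicate 3 to 0.96 without replicate 2. In the authors' deposited table its log2 fold change was 0.657 with an adjusted p of 0.189. Eif4h, the other helicase cofactor, was at 272 and 276 CPM against 347 and 309 CPM, again with both latter libraries higher (log2 0.28 ± 0.16, SE, edgeR adjusted p = 1.000).

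Eif4a1, the main helicase gene, was at 421 and 417 CPM in Vav1R63W cells and at 409.7 and 644 CPM in the libraries labelled Themis1-T-/-, with only replicate 3 of the latter set apart. Eif4a3, whose product serves the exon junction complex, was at 409.6 and 475 CPM against 295 and 453 CPM, and Eif4g2, a scaffold used in cap-independent initiation, at 182 and 166 CPM against 178 and 217 CPM. The groups overlapped for both. Eif4e, the cap-binding subunit itself and named after its values were seen, was at 195 and 221 CPM against 135 and 179 CPM, with both latter libraries lower. Eif4e2, a related cap-binding protein that acts in repression, was at 170.1 and 84.3 CPM against 211 and 176 CPM, with both latter libraries higher. Of the scaffold genes, Eif4g1 was at 22.3 and 29.8 CPM against 74.2 and 27.1 CPM, and Eif4g3 at 29.0 and 30.4 CPM against 15.3 and 0.143 CPM. The naming rule given under processing did not pick Eif4e2, Eif4g1 or Eif4g3. Eif4e1b, an oocyte form, had no reads. Of the 11 cap-binding and helicase genes tested, 0 passed, 7 had a positive and 4 a negative fold change, with a median of 0.28.

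Regulators that bind eIF4E, of which 2 could be tested, had negative fold changes, and 0 passed. Eif4ebp1, whose product holds eIF4E until mTORC1 phosphorylates it, was at 36.0 and 59.1 CPM in Vav1R63W replicates 2 and 3 and at 26.6 and 22.2 CPM in the libraries labelled Themis1-T-/-. Both latter libraries were lower (log2 -0.94 ± 0.62, SE, edgeR adjusted p = 1.000), and without Vav1R63W replicate 3 the log2 value was -0.51. Eif4ebp2 was at 62.7 and 44.9 CPM against 35.2 and 36.0 CPM, so its groups did not overlap either. Eif4enif1, the eIF4E transporter, had 494 reads in Vav1R63W replicate 2 and 1, 1 and 3 reads in the other libraries, which left it below the filter. Eif4ebp3 had no read in any library.

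**Figure D3:**
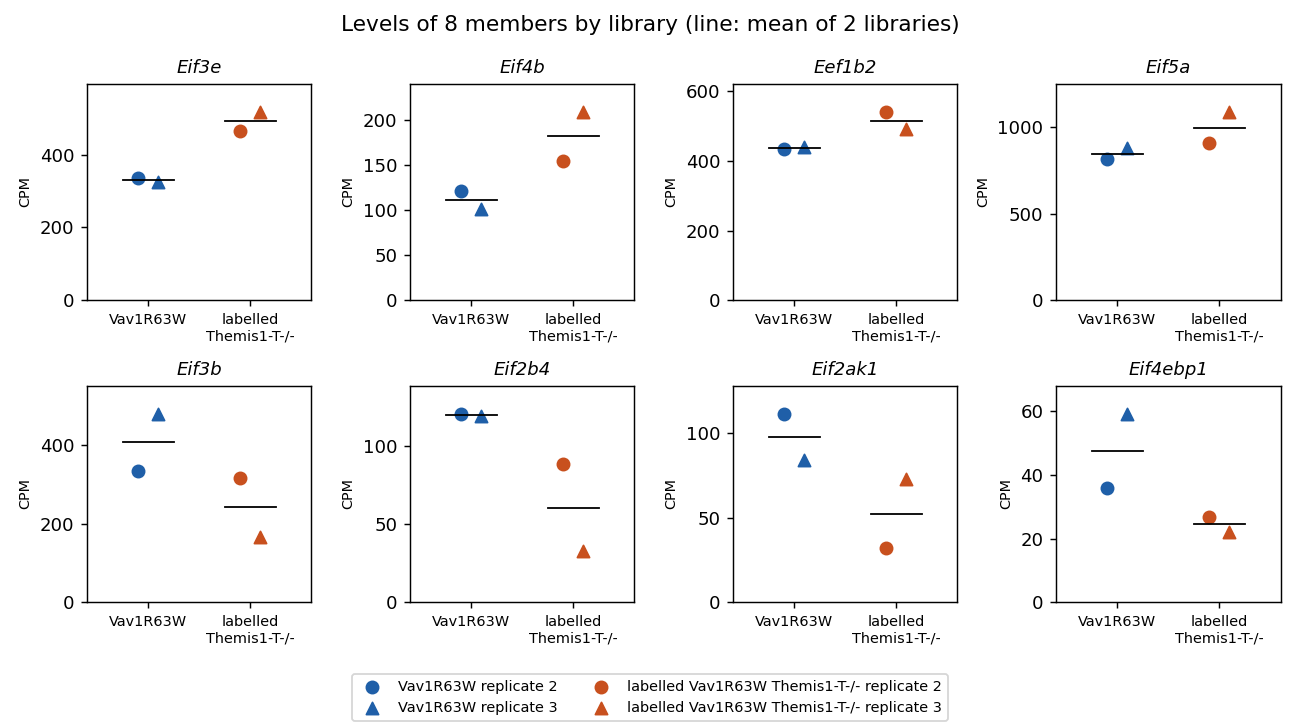
Each panel plots the CPM of a member in the 4 libraries from a vertical axis that starts at 0, with a line at the mean of each group. Eif3e, Eif4b, Eef1b2 and Eif5a have both libraries labelled Themis1-T-/- above both Vav1R63W libraries, and Eif3b, Eif2b4, Eif2ak1 and Eif4ebp1 have both below.

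Of the genes for the initiator tRNA and start codon recognition, Eif1, which guards the choice of start codon, was the highest. Eif1 was at 873 and 785 CPM in Vav1R63W replicates 2 and 3 and at 759 and 817 CPM in the libraries labelled Themis1-T-/-, and the groups overlapped. Its copy Eif1b, named after its values were seen, stood at 109.97 and 118 CPM against 107 and 123 CPM. Eif1ax, which works beside eIF1, was at 145 and 136 CPM against 149 and 128 CPM. None of these 3 genes separated the groups.

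Of the eIF2 subunit genes, Eif2s1, Eif2s2 and Eif2s3x had negative fold changes and the Y-linked Eif2s3y a positive one, none of which passed. Eif2s3x and Eif2s3y are given outside the naming rule described under processing. Eif2s1, the alpha subunit that the stress kinases phosphorylate, was at 321 and 287 CPM against 176 and 299 CPM, with only the library labelled Themis1-T-/- replicate 2 set apart (log2 -0.32 ± 0.32, SE, edgeR adjusted p = 1.000). Without that library the log2 fold change was 0.020. Eif2s2, the beta subunit, was at 206 and 205 CPM against 157 and 166 CPM, with both latter libraries lower (log2 -0.33 ± 0.20, SE, edgeR adjusted p = 1.000). Eif2s3x, the gamma subunit, was at 68.3 and 68.6 CPM against 42.8 and 57.9 CPM, also with both lower, although its count is uncertain through the sequence shared with Gm2223.

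Its Y-linked copy Eif2s3y, shown above, had 93 and 1 reads in Vav1R63W replicates 2 and 3 and 398 and 38 reads in the libraries labelled Themis1-T-/-. Ddx3y, another Y-linked gene, was at 11.6 and 2.71 CPM against 35.7 and 10.4 CPM, which is the same order of the 4 libraries as for Eif2s3y in CPM. Uty was at 0.143 and 0.139 CPM against 5.58 and 0.573 CPM, and Kdm5d at 5.36 and 0 CPM against 4.45 and 7.88 CPM, so these 2 Y-linked genes did not follow that order. Xist, which is transcribed from the inactive X chromosome of females, had reads in the same libraries, at 74.7 and 92.0 CPM against 113 and 88.4 CPM. Each library thus held reads of both Xist and Ddx3y. The sex of the mice and any pooling are not given in the sources used here, and their part in the levels of Eif2s3x and Eif2s3y was not tested. Of the 11 genes of this group, all tested, 0 passed, 7 had a positive and 4 a negative fold change, with a median of 0.01.

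For subunit joining, Eif5, which triggers GTP hydrolysis by eIF2, was at 384 and 323 CPM in Vav1R63W cells against 384 and 296 CPM in the libraries labelled Themis1-T-/-. Eif6, which keeps free large subunits apart, was at 399.5 and 359 CPM against 366 and 243 CPM, and its groups overlapped (log2 -0.30 ± 0.24, SE, edgeR adjusted p = 1.000). Its log2 value was -0.60 without the library labelled Themis1-T-/- replicate 2 and -0.05 without replicate 3. Eif5b, the subunit-joining GTPase, was at 57.0 and 25.5 CPM against 34.9 and 21.4 CPM. All 3 had negative fold changes, and 0 passed.

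The exchange factor eIF2B, which recharges eIF2 with GTP and is blocked by phosphorylated eIF2, has 5 subunits, and the groups overlapped for 3 of their genes. Eif2b2 was at 154 and 208 CPM against 175 and 169 CPM, and Eif2b5, the catalytic subunit, at 106 and 136 CPM against 131 and 138 CPM, both with overlapping groups. Eif2b4 was at 120.2 and 119 CPM against 87.9 and 32.6 CPM, with both libraries labelled Themis1-T-/- lower and far apart from each other (log2 -0.97 ± 0.55, SE, edgeR adjusted p = 1.000). Its log2 fold change was -1.83 without the library labelled Themis1-T-/- replicate 2 and -0.45 without replicate 3. Eif2b1, the regulatory alpha subunit, followed the same order, at 108 and 90.8 CPM against 74.2 and 37.3 CPM (log2 -0.81 ± 0.46, SE, edgeR adjusted p = 1.000), and gave -1.36 and -0.42 with the same libraries left out. Eif2b3, named after its values were seen, was at 69.4 and 37.6 CPM against 9.15 and 38.0 CPM. Exons of Eif2b4 share 7.85% of their bases with Snx17 on the opposite strand. Its 2 strand columns summed to 1.32 times the unstranded count, so its level is less certain. Of the 5 genes 0 passed and 4 had a negative fold change, with a median of -0.81.

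The 4 kinases that phosphorylate eIF2 alpha differed widely in level. Eif2ak1 (HRI, the kinase responsive to haem) was the highest, at 111 and 84.2 CPM in Vav1R63W cells against 32.2 and 72.6 CPM in the libraries labelled Themis1-T-/-, with both latter libraries lower (log2 -0.86 ± 0.54, SE, edgeR adjusted p = 1.000). It was -0.38 without the library labelled Themis1-T-/- replicate 2 and -1.60 without replicate 3. Eif2ak1 shares 8.59% of its exon bases with Aimp2 on the opposite strand, and its 2 strand columns summed to 2.35 times the unstranded count. In the strand column with more reads its log2 fold change was -0.44. The labelled kit does not mark strand, so that column can also hold reads of Aimp2 and is not a cleaner level.

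The other kinases had few reads, unevenly spread. Eif2ak3 (PERK, the kinase of endoplasmic reticulum stress) had 163 and 412 reads against 80 and 0, with a log2 fold change of -3.01 ± 2.69 (SE, edgeR adjusted p = 1.000) that ran from -11.15 to -2.02 over the alternatives. Eif2ak2 (PKR, activated by double-stranded RNA) had 0 and 103 reads against 132 and 0, so each group held a library with none. Eif2ak4 (GCN2, activated by uncharged tRNA) had 11 and 3 reads against 62 and 0. None of these 3 genes passed.

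Elongation factors included the most abundant members. Eef1a1, which delivers aminoacyl-tRNA to the ribosome, was at 5886 and 6767 CPM in Vav1R63W replicates 2 and 3 and at 5864 and 6339 CPM in the libraries labelled Themis1-T-/-, or 2493 ± 172 CPM per kilobase (SD, n = 4), the highest level per length of all members. Eef2, which moves the ribosome by a codon, was at 1789.5 and 2050.4 CPM against 1705 and 1799 CPM, and its groups overlapped (log2 -0.11 ± 0.13, SE, edgeR adjusted p = 1.000). Without Vav1R63W replicate 3 the log2 value was 0.018. Eef1g, a subunit of the eEF1 exchange complex, was at 756 and 1024 CPM against 901 and 763 CPM. These 3 genes did not separate the genotypes.

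Eef1b2, a subunit that exchanges GDP for GTP on eEF1A (ENSMUSG00000025967, GRCm38 chromosome 1, 63176825 to 63180486, plus strand), was at 434 and 439 CPM against 541 and 491 CPM. Both libraries labelled Themis1-T-/- were higher, and the 2 Vav1R63W libraries nearly coincided (log2 0.27 ± 0.13, SE, edgeR adjusted p = 1.000, with values from 0.21 to 0.31 over the alternatives). Eef1a2, the muscle and neuronal form of eEF1A, had no read in any library. Of the 6 genes tested in this group, 0 passed, 2 had a positive and 4 a negative fold change, with a median of -0.05. Eef1e1, placed in this group by its symbol only, is 1 of the 2 positive genes.

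Eif5a, a factor carrying the modified residue hypusine that helps ribosomes through difficult peptide bonds, was at 816 and 877 CPM against 905 and 1087 CPM, with both libraries labelled Themis1-T-/- higher (log2 0.26 ± 0.16, SE, edgeR adjusted p = 1.000). It was 0.40 without the library labelled Themis1-T-/- replicate 2 and 0.09 without replicate 3. The form Eif5a2 had 32 and 393 reads against 310 and 0.

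Of the enzymes that modify elongation factors, Eef2k, the kinase that halts eEF2, had 350 and 4 reads in Vav1R63W replicates 2 and 3 and 18 and 0 reads in the libraries labelled Themis1-T-/-. Its fitted log2 fold change of -4.44 ± 3.34 (SE, edgeR adjusted p = 1.000) rests on a single library, and it was 0.97 without Vav1R63W replicate 2. Eef1akmt1, a lysine methyltransferase of eEF1A, was at 298 and 320.2 CPM against 259 and 364 CPM, and Eef1akmt2 at 29.7 and 91.1 CPM against 45.6 and 75.6 CPM. Eef2kmt, a methyltransferase of eEF2, was at 35.8 and 19.3 CPM against 27.5 and 53.2 CPM, and its groups overlapped (log2 0.59 ± 0.73, SE, edgeR adjusted p = 1.000). Its log2 value was 0.0014 without the library labelled Themis1-T-/- replicate 3. Eef2kmt shares 17.6% of its exon bases with Alg1 on the opposite strand, and its 2 strand columns summed to 1.61 times the unstranded count. Eef1akmt3 had no reads.

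The spread between the 2 libraries of a group depended on the level of the gene. Of 61 tested members, 10 differed by over 2-fold between the Vav1R63W libraries and 12 between the libraries labelled Themis1-T-/-. Among the 35 members at a mean of 100 CPM or more, these numbers were 1 and 0. Over all 10216 genes tested, 35.4% and 43.6% differed by over 2-fold, and over the 2005 genes at 100 CPM or more 5.14% and 7.73% did. A library with at most 3 reads beside another with at least 50 was seen for 8 members, 12.9% of those with 50 reads in any library, and for 31.5% of all such genes. The 8 were Eef2k, Eif2ak2, Eif2ak3, Eif2ak4, Eif2s3y, Eif4enif1, Eif4g3 and Eif5a2, all at a mean under 18.8 CPM.

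**Figure D4:**
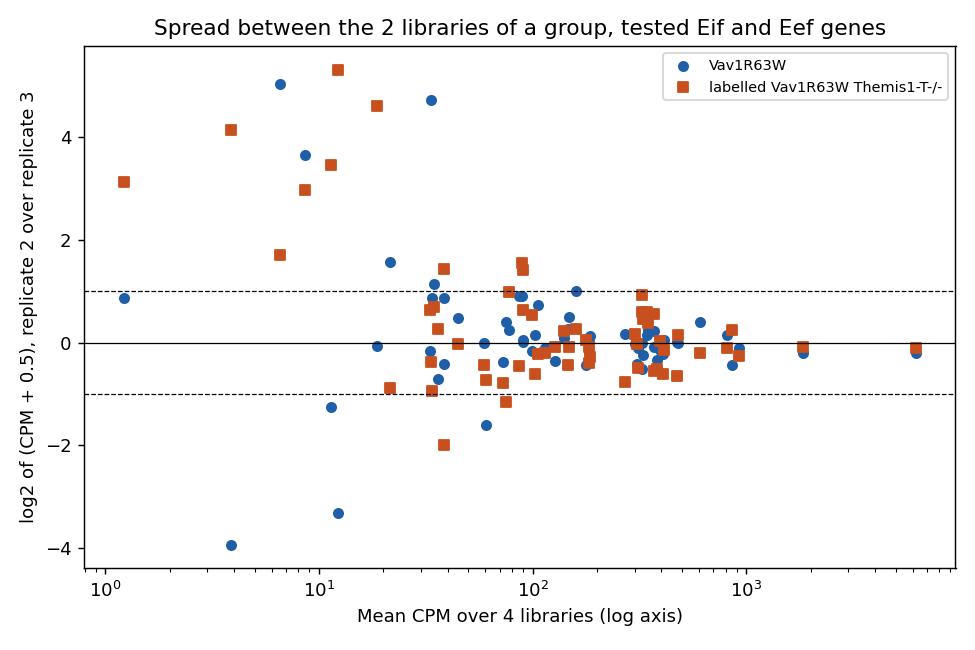
The vertical axis is the log2 ratio of replicate 2 over replicate 3 of CPM + 0.5, the horizontal axis the mean CPM on a log axis, and each of the 61 tested members has 1 point per group; dashed lines mark 2-fold. Members above 100 CPM lie within the dashed lines but for a single Vav1R63W point. Members under 20 CPM reach ratios beyond 4 on the log2 scale, and so does Eif2a in Vav1R63W, at a mean of 33.5 CPM.

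Other genes of the translation pathway were taken from 7 lists, with 80 of 87 listed genes tested. Of these 80, 0 passed with edgeR, 5 had an unadjusted p under 0.05 (beside 4.98% of all genes), 36 had a positive and 44 a negative fold change, and the median log2 fold change was -0.05. DESeq2 called 1, Mtor, beside 1.88% of all genes, and 2 passed in the authors' deposited table, beside 1.56%.

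Mtor, the kinase that phosphorylates 4E-BP1 and controls TOP mRNAs, had 178 and 181 reads in Vav1R63W replicates 2 and 3 and 0 and 1 reads in the libraries labelled Themis1-T-/-, replicates 2 and 3. Scaled by library totals, the summed reads were 378 times higher in Vav1R63W (exact 95% interval 67.4 to 14977), an interval that covers counting error only. Mtor did not pass with edgeR (adjusted p = 0.900), passed with DESeq2 (adjusted p = 0.0139), and its adjusted p ran from 0.0139 to 1.000 over the alternatives. In the authors' deposited table Mtor had a fold change of 0.596, a log2 fold change of -0.746 and no adjusted p. Other genes with few reads also had log2 fold changes smaller in size there than with DESeq2 here. Eef2k was at -0.223 there and -4.46 here, and Eif2ak3 at -0.28 and -3.02, whereas Eif3e was at 0.584 and 0.607. The deposited value is therefore not a like measure for the ratio of reads, and the reason was not tested. For Mtor the Vav1R63W libraries stood at 12.7 and 12.6 CPM, a range in which other genes had uneven reads between libraries of a group. Reads of Mtor were even within each group, and the cause of its difference was not tested. Rptor, its partner in mTORC1 and named after its values were seen, had 609 and 250 reads against 37 and 0. The 15 genes of the mTORC1 list had a median of -0.06, with 6 positive and 9 negative.

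Aminoacyl-tRNA synthetase genes, which charge tRNAs with amino acids, held 4 of the 5 unadjusted p under 0.05, with signs in both directions. Farsb, the beta subunit of phenylalanyl-tRNA synthetase, had 2788 and 3104 reads against 1742 and 1702 (log2 -0.82 ± 0.23, SE, edgeR adjusted p = 0.900), and its adjusted p in the authors' deposited table was 0.0209. Eprs, the glutamyl-prolyl enzyme, named after its values were seen, had 1018 and 641 reads against 1859 and 2921, with an adjusted p of 0.0362 in the authors' deposited table. Of the 22 genes, 11 were positive and 11 negative, with a median of -0.01.

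In the integrated stress response list, which is driven by the eIF2 kinases, Atf4, its central transcription factor, had 904 and 707 reads against 652 and 354 (log2 -0.76 ± 0.54, SE, edgeR adjusted p = 1.000, and -0.48 without the library labelled Themis1-T-/- replicate 3), and 5 of 7 tested genes were positive with a median of 0.18. Among other initiation proteins Abce1, which recycles ribosomes, had 1267 and 869 reads against 1582 and 1929 (log2 0.69 ± 0.38, SE, edgeR adjusted p = 1.000), with a median of 0.00 over 11 genes. The log2 value of Abce1 was 0.44 without Vav1R63W replicate 3 and 0.40 without the library labelled Themis1-T-/- replicate 3. Hbs1l, a rescue factor of stalled ribosomes, had a log2 fold change of -0.39 (-0.22 without Vav1R63W replicate 3), and the 7 termination and rescue genes had a median of -0.10. Of the diphthamide and hypusine enzymes, which modify eEF2 and eIF5A, Dph3 had 334 and 789 reads against 1415 and 982, with a median of -0.07 over 9 genes. The mitochondrial translation factors had the lowest list median, -0.39, with 2 positive and 7 negative of 9, and Mrrf, the mitochondrial ribosome recycling factor, had 418 and 684 reads against 208 and 151. None of these lists held a gene that passed with edgeR.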

How the data were processed

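The submitters' processing notes list FastQC, MultiQC, Trim Galore for trimming, STAR for alignment and DESeq2; versions are not given in the sources used here. The series' design text names Ensembl release 90 and the processing notes the build mm9, so coordinates are those of GENCODE M21 (GRCm38) by gene ID. The authors deposited raw read counts per gene (unstranded and per strand) and a table of those counts with the DESeq2 comparison of the design text: per gene a linear ratio (fold change), its log2 value, and raw and adjusted p-values. That deposited table also holds the authors' normalized counts, a rounded score, and a mean signal and a dispersion score, which were not used. The unstranded column equals that table for all 52636 genes in each library. Summary lines that name no gene held 21.1% to 23.1% of reads and were left out. The labels name a TruSeq RNA kit that does not mark strand.

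Counts were compared with edgeR 4.0.16 in R 4.3.3 (TMM, filterByExpr with a minimum count of 10 and total of 15, robust quasi-likelihood F test, two-sided, no block). The standard error is the log2 fold change over the square root of F. DESeq2 1.42.0 and limma-voom (limma 3.58.1) were alternatives. The main edgeR fit, DESeq2 and limma-voom were tested on simulated counts, and the other settings were not. The simulation gave every gene the same dispersion (spread beyond counting error). It therefore lacked the uneven reads of these libraries and cannot show how the fits treat them. CPM divides by the library's total of gene reads, while fold changes use TMM factors. The members, lists and naming rule (in each role the 4 highest members for levels and the 2, or 1 in small roles, with the smallest p for fold changes, plus any member called or with at most 3 reads in one group and at least 50 in the other; in each other list the gene with the smallest p) were chosen with earlier results of these data known. Symbols matched 52403 gene IDs. Of the 87 other genes listed, 85 were measured. A number shared by libraries of the 2 groups was not treated as a pair. The level of 1 marker gene is not reported here.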

Additional observations from a re-analysis of the deposited data

How the results depend on the processing

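Alternatives were DESeq2, limma-voom, DESeq2 size factors or plain library totals in edgeR, no count filter, at least 1 CPM in 2 libraries, the strand column with more reads, a replicate block, and leaving out each library. No member was called in any of these 12, nor was any gene in any but DESeq2, which called 206 genes of 10972. Applying the alternatives to the other translation genes was added after seeing the data: DESeq2 called 1, Mtor (log2 -8.50), and no other setting called any. The members' median log2 fold change ran from -0.11 to 0.02 when each library was left out in turn. Of 287 fold changes of 24 named genes under the alternatives, 3 reversed, all with a library left out: Eif2s1 ranged from -0.79 to 0.020, Eef2 from -0.23 to 0.018 and Eef2k from -10.45 to 0.97. The lone library of a group was then assumed to vary like the other group.

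With the replicate number as a block, 0 genes, 0 members and 0 other translation genes were called and the members' median was -0.02. The 2 libraries' deviations correlated at 0.02 between the groups, so the numbers were not taken to pair samples. Reads of the 8 members named above, all under 20 CPM, were uneven between libraries, as for Eif2ak3 with 412 reads in a library and 0 in another. Eif2a, at a mean of 33.5 CPM, was uneven too, with 793 and 24 reads in Vav1R63W replicates 2 and 3. The cause was not tested.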
